A study of Homo sapiens with 6 samples.

Results

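The CYP3A genes, their electron donor cytochrome P450 reductase (POR) and cytochrome b5 (CYB5A) were examined in HepaRG cells labelled as a functional knockout of PXR and in wild-type HepaRG cells. The members were chosen by gene symbol, with earlier results of these data known: CYP3A4, CYP3A5, CYP3A7, CYP3A43, POR and CYB5A, which are 6 of the 16659 genes kept in the deposited table. HepaRG cells come from human liver, and the labels describe them as hepatic stem cells with cancer as the disease. RNA was sequenced in 3 knockout libraries and 3 wild-type libraries, the wild type being named as the control, and no library came from drug-treated cells. The sources used here do not say how the knockout was made or whether its cells were a single clone. The labels do not state that each library had its own culture. The p-values thus reflect the spread between libraries, which may be technical. All 6 members were listed in every library, and all passed the filter on low values. CYP3A7 and CYP3A43 passed it through the knockout libraries alone, so that for them a call in the upward direction was built into the filter.

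CYP3A enzymes are heme proteins of the endoplasmic reticulum that oxidise a large share of prescribed drugs as well as steroids and bile acids. They receive electrons from NADPH through POR, the flavoprotein that serves all microsomal P450s, and part of this flow can pass through cytochrome b5. CYP3A4 is the main form of adult liver and intestine, CYP3A5 is a close relative also found outside the liver, CYP3A7 is the form of fetal liver, and CYP3A43 is a minor form. PXR, the nuclear receptor encoded by NR1I2, binds drugs and steroids, pairs with RXR and is best known for switching on CYP3A4. A site for this pair in the proximal CYP3A4 promoter is an everted repeat called ER6, in which a pair of hormone receptor half-sites faces outwards across a short spacer.

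The proximal promoters are shown because the members of the cluster share this element to different degrees. RefSeq promoter entries on GRCh38.p14 were found for 5 of the 6 members, and POR was not among them. The sequences below are the 250 bases before each gene's start, written 5′ to 3′ on the gene's strand. The start is that of RefSeq, which for CYP3A4 and CYP3A5 lies inside the gene span given with their values, so that 81 and 30 bases of these windows fall within it. Capitals mark the 18-base stretch that best matched the half-site TGAACT, a spacer of 6 bases and the half-site AGGTCA. They come from chr7:99784185-99784434 (minus strand) for CYP3A4, chr7:99735197-99735446 (minus strand) for CYP3A7, chr7:99679997-99680246 (minus strand) for CYP3A5 and chr7:99827763-99828012 (plus strand) for CYP3A43.
CYP3A4: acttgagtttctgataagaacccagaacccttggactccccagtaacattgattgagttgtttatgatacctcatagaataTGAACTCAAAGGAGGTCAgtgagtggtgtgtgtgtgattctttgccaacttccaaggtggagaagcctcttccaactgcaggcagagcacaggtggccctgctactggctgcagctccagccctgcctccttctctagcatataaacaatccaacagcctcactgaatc
CYP3A7: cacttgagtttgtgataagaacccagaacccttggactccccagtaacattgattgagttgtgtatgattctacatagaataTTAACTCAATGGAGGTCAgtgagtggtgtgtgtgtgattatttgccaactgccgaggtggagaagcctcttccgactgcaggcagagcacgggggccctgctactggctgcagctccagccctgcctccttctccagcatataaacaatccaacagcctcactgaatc
CYP3A5: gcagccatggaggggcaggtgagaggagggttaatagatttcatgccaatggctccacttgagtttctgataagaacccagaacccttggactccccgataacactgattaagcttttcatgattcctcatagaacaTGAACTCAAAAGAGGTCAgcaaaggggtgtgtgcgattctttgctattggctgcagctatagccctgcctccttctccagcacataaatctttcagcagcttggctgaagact
CYP3A43: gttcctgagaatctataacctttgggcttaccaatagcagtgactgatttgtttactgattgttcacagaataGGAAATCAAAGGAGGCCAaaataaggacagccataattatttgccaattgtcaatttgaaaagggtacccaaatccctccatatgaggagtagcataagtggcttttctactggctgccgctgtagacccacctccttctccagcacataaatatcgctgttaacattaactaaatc

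CYP3A4 and CYP3A5 held both half-sites without a mismatch, with the first base of the element at position -169 in CYP3A4 and -113 in CYP3A5 (the base before the RefSeq start being -1). Counted from 1 at the 5′ end of the CYP3A4 element, CYP3A5 differed from it by G11A, inside the spacer. CYP3A7 differed by G2T, in the first half-site, and by A10T, in the spacer, with its element at -168. CYP3A43 differed at 3 half-site bases, T1G, C5A and T16C, and its element began at -177. On either strand, the complete motif was present in 3 of 35116 RefSeq promoter windows of this length (0.00854%), those of CYP3A4, CYP3A5 and ITGB1BP2. The letters searched for are the half-sites of the CYP3A4 element, so its complete match follows from that choice. Mismatches of other windows thus count differences from the CYP3A4 half-sites. With up to 1 mismatch in the 12 half-site bases the motif was present in 0.117% of windows, with up to 2 in 1.44% and with up to 3 in 12.5%. The best stretch of the CYB5A window had 5 mismatches. The half-site AGGTCA alone, on either strand, was in 12.1% of all windows and, at the end of the marked element, in those of CYP3A4, CYP3A5 and CYP3A7. The sequence TATAAA, searched on the gene's strand, began at -29 in CYP3A4 and CYP3A7, was in neither CYP3A5 nor CYP3A43, and was in 6.80% of all windows. The CYP3A7 and CYP3A4 windows were 94.0% identical over 251 alignment columns, while CYP3A5 and CYP3A43 were 52.8% and 65.7% identical to CYP3A4. A match to these letters is a description of sequence and not evidence of binding.

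Levels are given in scaled CPM, a normalized read count whose library size the authors had adjusted by a factor per library. Estimated depth was 28154916 to 33393109 reads in knockout libraries and 11359209 to 20945994 in wild-type libraries, so every knockout library was deeper. Log2 changes are knockout minus wild type on log2(scaled CPM + 0.5), with a standard error (SE) from limma, and p-values were adjusted by Benjamini-Hochberg over all 16219 genes tested. Differences between the groups were widespread: 79.9% of the genes tested had a limma adjusted p under 0.05, with 40.3% of the genes tested higher and 39.6% lower in the knockout, and the libraries of the groups did not overlap for 80.8%. A call or a lack of overlap is therefore common, and the size of a change says more here than its p-value. The median absolute log2 change over all genes tested was 0.47. NR1I2 itself was measured at 13.1, 13.4 and 14.3 CPM in knockout libraries and at 8.24, 7.04 and 7.60 CPM in wild-type libraries (log2 change 0.80, SE 0.084, limma adjusted p = 6.8e-07). A level summed over the gene does not show whether the receptor made from it works, so this does not check a functional knockout.

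CYP3A5 (ENSG00000106258.15, chromosome 7, 99648194 to 99680026, GRCh38) was the most abundant CYP3A transcript per kilobase in both groups. It was measured at 802, 795 and 788 CPM in knockout libraries, against 60.5, 65.9 and 58.9 CPM in wild-type libraries. The lowest knockout value was thus far above the highest wild-type value, and values within each group lay close together. Means were 795 ± 7.26 CPM in the knockout and 61.8 ± 3.69 CPM in wild type (SD, n = 3 each), a ratio of 12.9. The log2 change was 3.68 ± 0.036 (SE), with a limma adjusted p of 7.5e-18.

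CYP3A4 (ENSG00000160868.15, chromosome 7, 99756960 to 99784265) rose by a larger factor. Knockout libraries had 261, 252 and 258 CPM, against 13.9, 14.0 and 13.3 CPM in wild-type libraries, and the groups did not overlap. The means of 257 ± 4.80 CPM in the knockout and 13.7 ± 0.39 CPM in wild type (SD, n = 3 each) gave a ratio of 18.7. Its log2 change of 4.18 ± 0.036 (SE, limma adjusted p = 2.6e-18) ranked 160 among 16219 tested genes, the largest rise having rank 1, and that of CYP3A5 ranked 225.

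CYP3A7 (ENSG00000160870.14, chromosome 7, 99684957 to 99735196), the fetal form, had the largest change of the cluster. Its 3 knockout libraries were nearly alike at 67.7, 67.3 and 67.4 CPM, a coefficient of variation of 0.29%. Wild-type libraries had 0.41, 0.14 and 0.45 CPM, which is 5, 3 and 10 estimated reads. The wild-type level was therefore near the limit of what these depths measure, and the ratio of means, 201, rests on 18 reads on the wild-type side. The log2 change was 6.37 ± 0.13 (SE, limma adjusted p = 1.3e-14), rank 15 of all genes tested. It was 7.37 with a pseudocount of 0.1, 5.69 with a pseudocount of 1 and 7.72 with voom weights. A readthrough gene that overlaps CYP3A7 and runs into a pseudogene, CYP3A7-CYP3A51P, was listed at 1.46, 1.27 and 1.48 CPM in knockout libraries and at 0 in each wild-type library. Reads of the shared exons cannot be assigned to either gene with certainty.

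CYP3A43 (ENSG00000021461.16, chromosome 7, 99828013 to 99866102) was the least abundant CYP3A transcript per kilobase in the knockout. It had 4.65, 4.44 and 4.52 CPM in knockout libraries, against 0.49, 0.48 and 0.17 CPM in wild-type libraries, with no overlap. In wild type this was 19.9 estimated reads over the 3 libraries. The log2 change was 2.54 ± 0.16 (SE, limma adjusted p = 3.2e-09). With a pseudocount of 0.1 it was 3.35 and with voom weights 3.68.

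**Figure D1:**
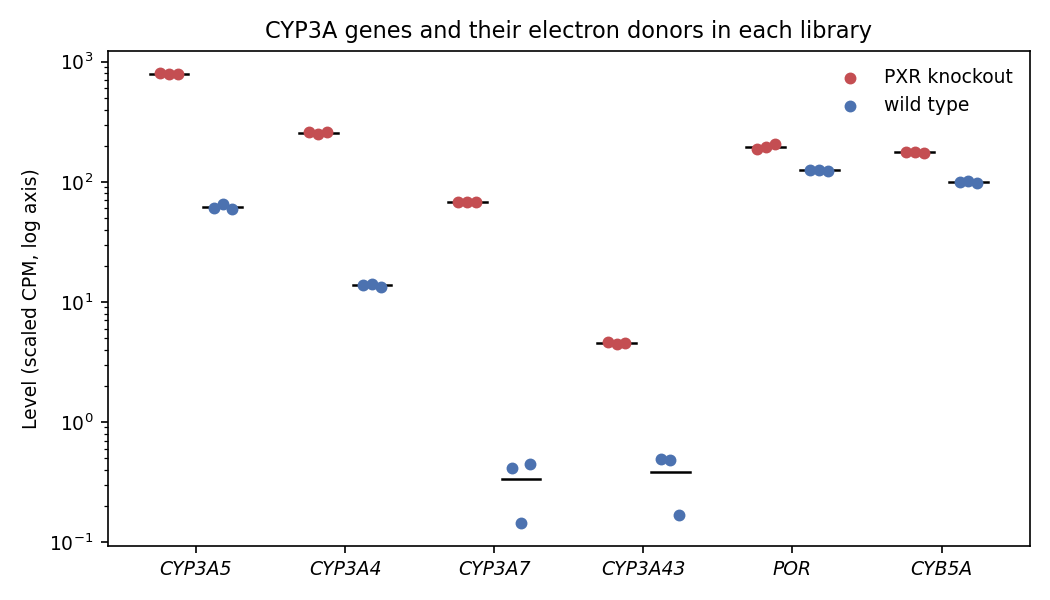
Level of each member in scaled CPM on a log axis. Points are libraries and black lines are group means, with the 3 PXR knockout libraries left of the 3 wild-type libraries. The CYP3A genes stand 11.9 to 201 times higher in the knockout by ratio of means, and POR and CYB5A 1.56 and 1.77 times higher.

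CYP3A genes are similar in sequence, and the files carry estimated counts that can divide a read between genes. POR came out at whole reads in all 6 libraries, within 0.006 of a read. CYP3A4 was whole in 2 libraries, CYP3A7 in 3, CYP3A43 in 1 and CYP3A5 in 0, as was CYB5A. Every whole CYP3A value was of a wild-type library, and none of the knockout values of the CYP3A genes was whole. A value that is not whole can hold reads divided between genes, and between which genes was not measured.

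Levels were compared between genes only per kilobase of the principal GENCODE transcript, which was 1720 bases for CYP3A5, 2153 for CYP3A4, 1971 for CYP3A7, 1515 for CYP3A43, 2522 for POR and 3283 for CYB5A. In the knockout the order per kilobase was CYP3A5 (462 CPM per kb), CYP3A4 (119), POR (77.5), CYB5A (53.7), CYP3A7 (34.2) and CYP3A43 (3.0). No neighbours in this order overlapped between libraries. In wild type the order was POR (49.6 CPM per kb), CYP3A5 (35.9), CYB5A (30.3), CYP3A4 (6.37), CYP3A43 (0.25) and CYP3A7 (0.17), and only the values of the last pair overlapped. Among all genes tested, the per-kilobase level of CYP3A5 lay at percentile 99.4 in the knockout and 88.4 in wild type. CYP3A4 lay at percentile 97.0 in the knockout and 48.5 in wild type, and CYP3A7 at 87.1 in the knockout and 3.24 in wild type. CYP3A43 lay at 31.3 in the knockout and 4.61 in wild type.

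The makeup of the CYP3A pool differed between the groups. CYP3A5 supplied 74.7% ± 0.29 of the summed CYP3A level per kilobase in the knockout and 84.1% ± 0.68 in wild type (SD, n = 3 each). CYP3A4 supplied 19.3% ± 0.28 in the knockout and 14.9% ± 0.50 in wild type, and CYP3A7 5.53% ± 0.033 in the knockout and 0.41% ± 0.21 in wild type. The share of CYP3A43 was 0.48% ± 0.0077 in the knockout and 0.58% ± 0.27 in wild type, and its libraries overlapped. For each CYP3A4 transcript, by geometric mean, there were 3.87 of CYP3A5 in the knockout and 5.63 in wild type, a log2 difference of -0.54 ± 0.038 (SE). The CYP3A7 to CYP3A4 ratio was 0.287 in the knockout and 0.0238 in wild type, a log2 difference of 3.59 ± 0.55 (SE). For both ratios the groups did not overlap, and the exact two-sided permutation test gave p = 0.1, the smallest that 3 libraries against 3 allow. After adjustment over the 4 ratios tested the permutation p was 0.1 for each of them.

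POR (ENSG00000127948.16, chromosome 7, 75899200 to 75986855), the obligate electron donor, rose by less than each of the 4 CYP3A genes. It had 186, 195 and 205 CPM in knockout libraries, against 126, 126 and 123 CPM in wild-type libraries, without overlap. Its knockout libraries were the most spread among the 6 members, with a coefficient of variation of 4.94%. Means were 196 ± 9.67 CPM in the knockout and 125 ± 1.73 CPM in wild type (SD, n = 3 each). The log2 change was 0.64 (95% interval 0.57 to 0.72, limma adjusted p = 4.2e-10), at percentile 80.0 of the changes of all genes tested.

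CYB5A (ENSG00000166347.19, chromosome 18, 74250847 to 74292016), which encodes the microsomal electron carrier cytochrome b5, changed by a similar amount. Knockout libraries had 177, 177 and 175 CPM, against 99.2, 102 and 97.5 CPM in wild-type libraries, again with no overlap. The log2 change was 0.82 (95% interval 0.76 to 0.88, limma adjusted p = 2.7e-12), at percentile 84.0. The log2 ratio of CYB5A to POR was 0.18 ± 0.049 (SE) higher in the knockout (exact permutation p = 0.1, the smallest possible), with no overlap of the libraries.

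Relative to POR, the CYP3A pool was much larger in the knockout. The summed CYP3A level per kilobase was 619 ± 5.42 CPM in the knockout and 42.7 ± 2.29 CPM in wild type (SD, n = 3 each). Divided by the POR level of the same library it was 8.48, 7.95 and 7.56 in knockout libraries, against 0.84, 0.91 and 0.83 in wild-type libraries. In wild type there was thus less CYP3A transcript than POR transcript, and in the knockout several times more. The log2 ratio of CYP3A4 to POR was 3.59 ± 0.050 (SE) higher in the knockout (exact permutation p = 0.1, the smallest possible).

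**Figure D2:**
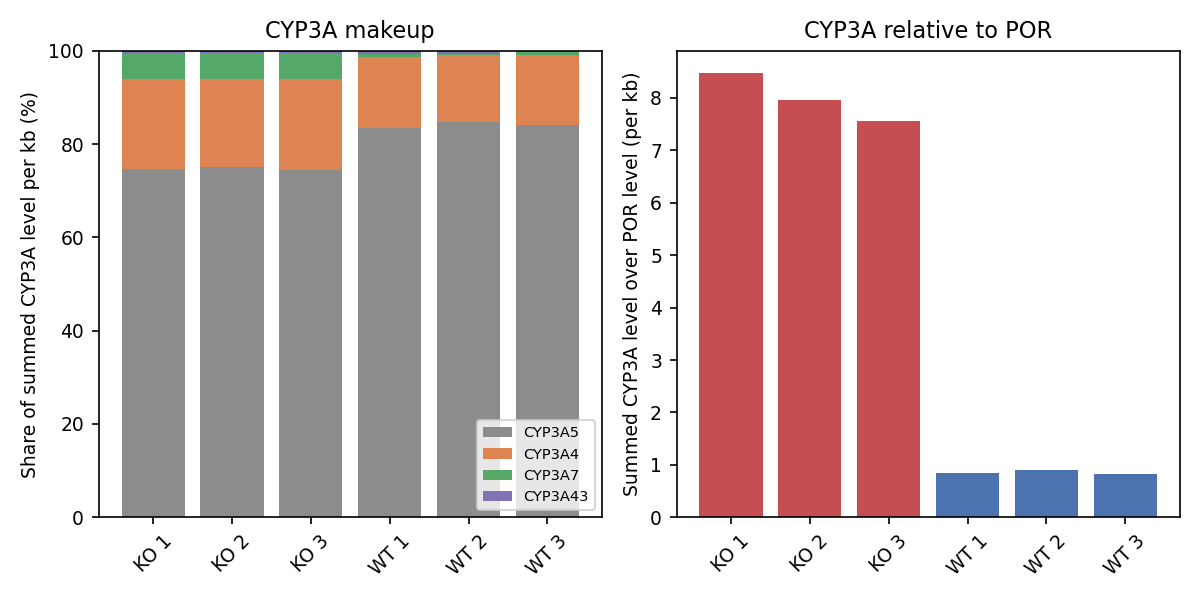
Left, share of each CYP3A gene in the summed CYP3A level per kilobase, in percent, for each library. Right, the summed CYP3A level over the POR level of the same library. Knockout libraries (KO 1 to KO 3) stand left of wild-type libraries (WT 1 to WT 3), with CYP3A5 at 74.7% and 84.1% on average and ratios to POR of 7.56 to 8.48 and 0.83 to 0.91.

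Other microsomal P450s, which draw on the same reductase, mostly rose as well. Of 44 listed, 36 were tested, of which 26 were higher, 4 lower and 6 not called, with a median log2 change of 1.04 against 0.014 for all genes tested. Of these 36, 10 passed the filter through the knockout alone and 1 through wild type alone. Among the remaining 25, 16 were higher and 3 lower, where 38.9% and 39.3% of all genes so restricted were higher and lower. Large rises were those of CYP2C18 and of CYP4A11, a fatty acid omega-hydroxylase. CYP2C18 and CYP4A11 changed by 5.76 and 4.78 on the log2 scale. CYP4A11 passed the filter through the knockout alone, so that its higher call was built in. In wild type it averaged 0.39 CPM, from 19.6 estimated reads over the libraries. Its log2 change was 5.67 with a pseudocount of 0.1 and 4.16 with a pseudocount of 1. CYP51A1, the sterol demethylase of cholesterol synthesis, rose to 550 ± 8.94 CPM in the knockout, against 272 ± 4.96 CPM in wild type. The largest falls were those of CYP26B1, which breaks down retinoic acid, CYP4F8 and CYP20A1, with log2 changes of -1.13, -0.68 and -0.48. CYP4F8 passed the filter through wild type alone, so that its lower call was built in. It averaged 0.70 CPM in the knockout and 1.41 CPM in wild type. Mitochondrial P450s, which do not use POR, could be tested for 2 of 7 genes. CYP27A1, a sterol hydroxylase, fell by 0.25 on the log2 scale, and CYP27B1, which activates vitamin D, had a limma adjusted p of 0.0546 (2.12 ± 0.079 CPM in the knockout and 1.65 ± 0.14 CPM in wild type). It was called higher without wild-type library 1.

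Other electron transfer partners of P450s were mixed, with 6 of 11 higher and 3 lower (median log2 change 0.11). CYB5R2 passed the filter through the knockout alone, and without it 5 of 10 were higher and 3 lower, where 38.9% and 39.3% of all genes so restricted were higher and lower. The largest rise was that of FDXR, the reductase of the mitochondrial P450 chain and a known target of p53, which had 160, 174 and 181 CPM in knockout libraries and 41.1, 40.7 and 39.8 CPM in wild-type libraries. CYB5B, the cytochrome b5 of the mitochondrial outer membrane, rose to 80.9 ± 1.89 CPM in the knockout, against 37.9 ± 2.93 CPM in wild type. CYB5R2, a cytochrome b5 reductase, rose to 2.58 ± 0.40 CPM in the knockout, against 0.81 ± 0.082 CPM in wild type, where it was counted in 44 estimated reads. Of the other reductases of cytochrome b5, CYB5R3, the main form, fell by 0.51, CYB5R4 by 0.46 and CYB5R1 by 0.20 on the log2 scale, while CYB5RL had a log2 change of 0.11 with a limma adjusted p of 0.217. CYB5R3 had 73.5, 79.3 and 73.3 CPM in knockout libraries, against 115, 101 and 106 CPM in wild-type libraries, so that CYB5A and its principal reductase moved in opposite directions. PGRMC1, a heme-binding partner of P450s, had a log2 change of 0.10 (adjusted p = 0.00216), and its value was -0.033 when libraries were scaled to equal sums and -0.0011 with quantile normalization.

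Heme is the prosthetic group of every P450, and 8 of 12 genes of its synthesis and breakdown were higher and 3 lower (median log2 change 0.37). The shares over all genes tested were 40.3% higher and 39.6% lower. ALAS1, the rate-limiting enzyme of heme synthesis in liver, had 78.3, 77.2 and 77.7 CPM in knockout libraries, against 46.5, 44.0 and 45.9 CPM in wild-type libraries (log2 change 0.77, SE 0.035). ALAD, the next enzyme of the path, rose by 1.23. The biliverdin reductases BLVRA and BLVRB, which act after heme breakdown, rose by 1.34 and 0.79. Late enzymes of synthesis went down, PPOX with a log2 change of -0.47 and FECH with -0.12. The call for FECH was lost without wild-type library 3, knockout library 1 or knockout library 2 (limma adjusted p of 0.0528, 0.0517 and 0.0510).

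Of 7 tested genes listed as cytochrome b5 dependent lipid enzymes, 6 were higher and 0 lower (median log2 change 0.70). Whether each enzyme uses the cytochrome b5 that CYB5A encodes was not tested. Among all genes tested 40.3% were higher and 39.6% lower. The lipid enzymes that rose included MSMO1, a sterol demethylation enzyme, and the desaturase genes FADS1 and FADS3, with log2 changes of 1.30, 1.07 and 0.89. SCD was at 1214 ± 11.7 CPM in the knockout and 1217 ± 10.7 CPM in wild type. With libraries scaled to equal sums, and with quantile normalization, 1 of the 7 genes was lower.

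Transcription factors and cofactors known to act on CYP3A genes were higher for 15 of 25 tested and lower for 4 (median log2 change 0.54). Over all genes tested the shares were 40.3% higher and 39.6% lower. ONECUT1, NR0B2 and NR1I3 passed the filter through the knockout alone, so that a higher call was built in for them. Among the other 22 factors and cofactors, 12 were higher and 4 lower, where 38.9% and 39.3% of all genes so restricted were. The largest rise was that of NR1H4, the bile acid receptor FXR, with 71.7, 67.6 and 66.8 CPM in knockout libraries and 2.23, 2.54 and 1.75 CPM in wild-type libraries. The liver factor ONECUT1 (HNF6) had 9.28 ± 0.28 CPM in the knockout and 0.073 ± 0.022 CPM in wild type, where it was counted in 4 reads over the 3 libraries. NR0B2 (SHP), a repressor, had 3.11 ± 0.38 CPM in the knockout and 0.13 ± 0.079 CPM in wild type, with 8 reads there. NR1I3, the constitutive androstane receptor that shares response elements with PXR, had 1.94, 1.98 and 2.43 CPM in knockout libraries. In wild-type libraries it had 0.41, 0.51 and 0.48 CPM, from 26.1 estimated reads in all. RXRA, the partner of PXR, changed by 0.18 on the log2 scale (limma adjusted p = 0.000366), and by 0.043 with a limma adjusted p of 0.280 when libraries were scaled to equal sums. PPARGC1A, a coactivator of liver receptors, fell by 0.66, NR2F2 by 0.32 and DBP, a clock-controlled factor, by 0.29. The call for DBP was lost without wild-type library 3 or knockout library 1 (limma adjusted p of 0.0558 and 0.0720).

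**Figure D3:**
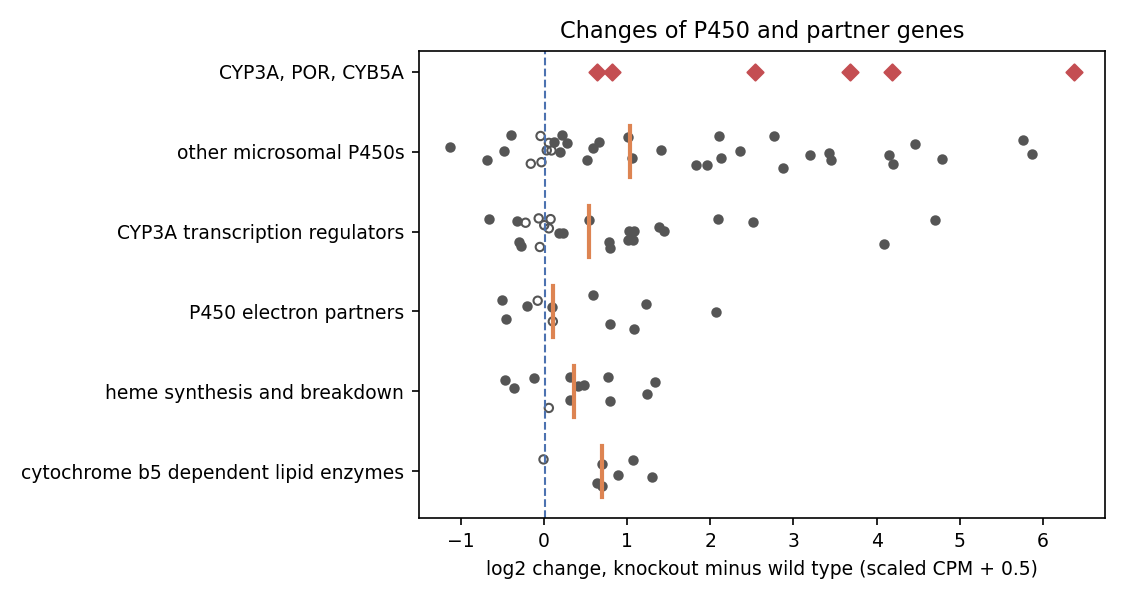
Log2 change, knockout minus wild type, of the members (red diamonds) and of the tested genes of 5 lists (filled points, adjusted p under 0.05; open points, not called; vertical scatter is for visibility). Orange bars are list medians, from 0.11 for electron partners to 1.04 for other microsomal P450s, and the dashed line is the median of all genes tested, 0.014.

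The 4 CYP3A genes lie side by side on chromosome 7, and POR lies on the same chromosome. The median log2 change of the 816 tested genes of chromosome 7 was 0.43, against 0.014 for all genes, so genes of this chromosome were higher in the knockout by median. The part of this shift in the changes of POR and the CYP3A genes was not tested. Within 1 Mb of the cluster 58 genes were tested, the readthrough included, with a median of 0.43, and 45 were higher and 6 lower. Of these, 4 passed the filter through the knockout alone, and among the other 54 genes 41 were higher and 6 lower. Among all genes so restricted 38.9% were higher and 39.3% lower. Next to the cluster, the zinc finger gene ZSCAN25 had 33.4, 34.0 and 37.5 CPM in knockout libraries and 31.2, 29.4 and 35.6 CPM in wild-type libraries. The groups overlapped, and its log2 change of 0.13 had a limma adjusted p of 0.102. That value was 0.20 without wild-type library 3 (limma adjusted p = 0.00985), and -0.011 with libraries scaled to equal sums. With a replicate block ZSCAN25 was called higher (limma adjusted p = 0.0365). On the other side TRIM4, a ubiquitin ligase gene, rose by 0.44. The changes of the CYP3A genes, 2.54 to 6.37, were thus far above those of both adjoining genes. Farther off within 1 Mb, TFR2 changed by 2.48, TMEM225B by 2.08 and CASTOR3 by 2.02, while PCOLCE changed by -2.65. The change of CYP3A43, 2.54, was thus near the largest rises around the cluster. TFR2 and TMEM225B averaged 0.042 and 0.10 CPM in wild type.

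POR had a less distinct neighbourhood. Of 27 genes tested within 1 Mb of it, 13 were higher and 9 lower (median log2 change 0.16). Without the 2 that passed the filter through the knockout alone, 11 of 25 were higher and 9 lower. These shares were near the 38.9% higher and 39.3% lower of all genes so restricted. RHBDD2, on one side, rose by 0.99, STYXL1, on the other, fell by 0.73, and TMEM120A, whose annotated span overlaps that of POR, changed by 0.16, and by 0.026 when libraries were scaled to equal sums (limma adjusted p = 0.640). The library kit keeps strand, per the labels, but whether counting used it is not given in the sources used here, so reads of the overlap may be shared. Around CYB5A, 1 of 7 tested genes was higher and 3 lower (median log2 change -0.30), against 40.3% and 39.6% of all genes tested. The median of the 260 tested genes of chromosome 18 was -0.012. The peptidase gene CNDP2 rose by 0.52, and TIMM21, on the other side, had 39.1 ± 1.0 CPM in the knockout and 38.3 ± 1.27 CPM in wild type.

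**Figure D4:**
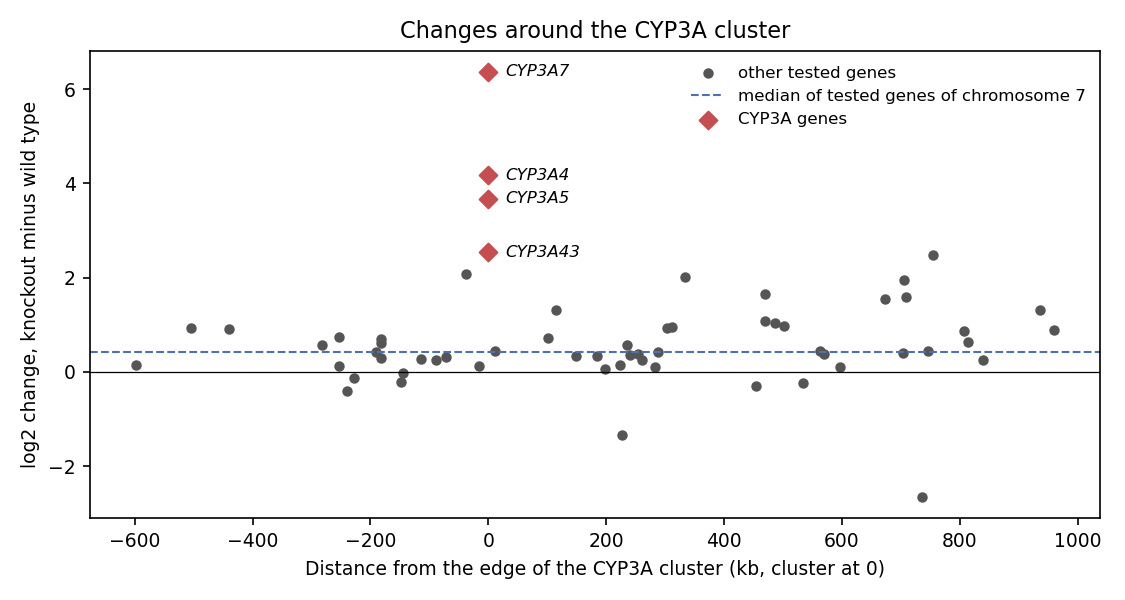
Log2 change, knockout minus wild type, of tested genes by distance from the edge of the CYP3A cluster in kb (grey points), with the CYP3A genes at 0 (red diamonds). The dashed line is the median of the tested genes of chromosome 7, 0.43. CYP3A4, CYP3A5 and CYP3A7 lie above all the grey points, and CYP3A43, at 2.54, lies beside the highest of them, 2.48, on this scale with its pseudocount of 0.5.

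Profiles most like those of the members were sought over the 6 libraries, as the smallest distance between log2 values centred on each gene's mean. With only a pair of groups, this measure mainly finds genes with the same change. CYP3A4 was nearest to CDKN1A, the kinase inhibitor p21 (distance 0.095, 664 CPM in the knockout and 35.1 CPM in wild type), then to G6PC, a gluconeogenic phosphatase listed at 0 in wild type, and to the pseudogene SNX18P12. The likeness of G6PC depends on the pseudocount: with 0.1 its log2 change was 6.45, against 4.22 for CYP3A4. CYP3A5 was nearest to A2M, a plasma protease inhibitor (distance 0.14), TF, which encodes transferrin, and AMOTL1. CYP3A7 had more distant neighbours, MUC19 at 0.29, ITIH1 at 0.45 and FXYD2 at 0.49. ITIH1 was listed at 0 in every wild-type library and FXYD2 averaged 0.027 CPM there, and with a pseudocount of 0.1 their log2 changes were 8.64 and 8.25, against 7.37 for CYP3A7. POR was nearest to MVP, the major vault protein gene (0.033), MAN2B1 and CDK10, and CYB5A to PEBP1 (0.045), AC108010.1 and TM4SF1.

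The rises in the CYP3A genes went with a general rise of hepatocyte transcripts. All 8 hepatocyte markers were higher, where 40.3% of all genes tested were higher and 39.6% lower. Their median log2 change was 4.74, and they summed to 41764 to 42773 CPM in knockout libraries and 1510 to 1573 CPM in wild-type libraries. Albumin (ALB), APOA1 and HP led them, with log2 changes of 5.24, 7.23 and 5.39. In bulk RNA a larger share of hepatocyte-like cells and more transcript per cell cannot be told apart. Markers of other cell types were less uniform. Mesenchymal markers summed to 486 to 508 CPM in knockout libraries and 97.3 to 104 CPM in wild-type libraries, with 5 of 6 measured higher, among them ACTA2, DCN and LUM, and PDGFRB lower. The 4 bile duct markers measured, of 7 listed, summed to 373 to 399 CPM in the knockout and 489 to 515 CPM in wild type. KRT19 and SOX9 were higher and SPP1 and KRT7 lower. The lower sum came through SPP1, which averaged 43.6 CPM in the knockout and 382 CPM in wild type. KRT19 averaged 334 CPM in the knockout and 111 CPM in wild type. The 2 endothelial markers measured summed to 215 to 222 CPM in the knockout and 54.8 to 55.1 CPM in wild type, through KDR, while PECAM1 was lower. The 3 leukocyte markers measured summed to 22.7 to 24.1 CPM in the knockout and 13.6 to 16.8 CPM in wild type, with CD68 and LYZ higher and CD14 lower. The call for LYZ was lost without wild-type library 1 or 2 or knockout library 1 or 3, and with equal sums, quantile normalization or voom weights, with limma adjusted p up to 0.177. The call for CD14 was lost without wild-type library 2 or 3 or knockout library 1 or 2, and with a pseudocount of 0.1 or voom weights, with limma adjusted p up to 0.130. KRT7, PDGFRB and PECAM1 passed the filter through wild type alone, so that a lower call was built in for them. The fetal liver markers AFP and LIN28B, summed at 29.3 to 30.9 CPM in the knockout and 15.4 to 18.6 CPM in wild type, rose by 0.81 and 0.83. Listed markers without a value, such as EPCAM, VIM and PTPRC, were not analysed here. The part of any of these markers in the CYP3A changes was not tested.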

How the data were processed

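RNA of HepaRG cells was sequenced in 6 libraries, 3 from PXR knockout cells and 3 from wild-type cells. The authors deposited a normalized signal on a linear scale, called scaled CPM here, although the table is named for log2 values. Per the submitters' processing notes, FastQC, Trim Galore, Bowtie2, edgeR and limma were used with hg38; titles begin with RSEM. The sources used here give neither versions nor the annotation release. Depth was estimated from the smallest step of the values. Only 67.9% to 76.6% of values under 20 reads were whole within 0.006, so no count test was used. After removal of 14 repeated pseudoautosomal rows and repair of 21 symbols turned into dates, 16659 genes remained, of which 16608 matched GENCODE 29.

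Log2(scaled CPM + 0.5) was fitted with limma 3.58.1 in R 4.3.3 (empirical Bayes with trend, two-sided, threshold 0.05) for genes above 1 CPM in at least 3 of 6 libraries. On data simulated for this comparison over 15888 genes it recovered 81.2% of 1.5-fold, 95.9% of 2-fold and 100% of 4- and 8-fold changes, with 5 false calls among 186. The simulation held 47 to 49 changed genes per fold size and the same dispersion for all genes. In the measured data 79.9% of genes were called, so these rates do not carry over to them. Members and lists were chosen with earlier results of these data known. Named genes were the members, NR1I2, some fixed genes, up to 3 largest rises and falls of each list, adjoining genes and the 3 nearest profiles. CYB5RL, CYP27B1 and SCD fall outside it and were chosen after their values were seen. HNF4A, in that rule, was not analysed here, and some genes that the rule names are not reported here. Python 3.11.15, pandas 2.3.3, numpy 2.4.6, scipy 1.17.1, Biopython 1.88 and matplotlib 3.10.9 were used.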

Additional observations from a re-analysis of the deposited data

How the results depend on the processing

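The 6 members kept their direction and their call under all 13 alternatives: pseudocounts of 0.1 and 1, no filter on low values, libraries scaled to equal sums, quantile normalization, voom weights, a replicate block and each library left out. The range of the log2 change over these was 4.04 to 4.23 for CYP3A4, 3.54 to 3.72 for CYP3A5, 5.69 to 7.72 for CYP3A7, 2.01 to 3.68 for CYP3A43, 0.50 to 0.68 for POR and 0.69 to 0.84 for CYB5A. Scaling to equal sums moved the median of all genes to -0.12, and 5357 genes were then higher and 7680 lower, against 6534 and 6426. Under it the lower calls became 8 among the CYP3A regulators, 7 among other microsomal P450s, 1 among cytochrome b5 dependent lipid enzymes and 5 near CYB5A, and quantile normalization gave 1 lower among the same lipid enzymes. Directions turned for PGRMC1 (-0.033), TIMM21 (-0.11) and ZSCAN25 (-0.011) under equal sums, and for PGRMC1 (-0.0011) and TIMM21 (-0.0012) under quantile normalization; the cause was not tested. Among mitochondrial P450s the higher calls became 1 with a pseudocount of 1, and 0 to 1 over the left-out libraries. Without division by length, CYP3A5 made up 70.7% of the CYP3A level in the knockout and 81.0% in wild type. Same-numbered libraries did not deviate together (correlations -0.061 to 0.025). With so few libraries, this cannot show whether same-numbered libraries shared a culture or a run. With the replicate block 6518 genes were higher and 6398 lower. The call for CD14 was then lost (limma adjusted p = 0.0612) and ZSCAN25 was called (limma adjusted p = 0.0365). Leaving out 1 library gave 6267 to 6494 higher and 6177 to 6393 lower genes, and moved the CYP3A7 to CYP3A4 log2 difference between 3.05 and 3.91. The wild-type levels of CYP3A7 and CYP3A43 are limited by depth, at 18 and 19.9 estimated reads.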
